A study of Mus musculus with 9 samples.

Results

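Heterotrimeric G proteins and the regulators of G protein signalling (RGS proteins) were measured as a family of 54 genes among the 18193 genes of the array. They were chosen by name, as every gene whose annotated symbol begins with Gna, Gnb, Gng or Rgs on a probe set that names 1 gene only. A probe set is a group of short DNA probes for 1 transcript, and 33 of the 54 genes had more than 1, 126 in all. Where there were several, the one that was brightest on average over the 9 arrays stood for its gene. The names also took in 2 genes of another kind: Gnasas1, an antisense transcript of the imprinted Gnas locus, and Gnb1l, a WD-repeat protein that is not a G protein subunit. The gamma subunit gene Gng5 was not included, because its probe set also names a pseudogene.

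The arrays measured motor neurons cut by laser from cresyl violet stained spinal cord and midbrain sections. The animals were 7 days old, male and of the C57BL/6J strain, untreated and with no genetic change given in the labels. The 3 pools were lumbar motor neurons at the L5 level, motor neurons of the dorsolateral nucleus (DL), which innervate pelvic sphincters, and oculomotor neurons (OMN), which move the eyes, with 3 arrays each. About 200 neurons of each pool were taken per animal. In amyotrophic lateral sclerosis limb-level neurons such as those of L5 are lost early while DL and OMN neurons are largely spared, and the pools were compared in healthy young animals on that account.

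A heterotrimeric G protein passes the signal of a seven-helix receptor into the cell. Its alpha subunit binds GTP and parts from the beta-gamma pair. Alpha subunits of the s class stimulate and those of the i/o class inhibit adenylyl cyclase, and those of the q class activate phospholipase C beta, while beta-gamma opens inwardly rectifying potassium channels. RGS proteins speed the hydrolysis of GTP by alpha subunits and so shorten the signal. In motor neurons these pathways carry the modulation of excitability by serotonin, noradrenaline, acetylcholine and peptides.

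Values are scaled fluorescence intensities, and differences are on the log2 scale after 16 was added to each intensity, which understates the change of dim genes. A gene is called higher or lower where limma's moderated test, adjusted by Benjamini-Hochberg over all 18193 genes, gave a p below 0.05. An intensity of 18.3, the highest reading of 27 bacterial control probe sets, served as the noise level. The p-values measure the spread between these arrays. Where arrays of pools are said not to overlap, this is a description, because the share of all genes without overlap was not counted. Intensities of different genes come from different probes and are not set against each other. Because each pool is a bulk extract, fewer cells of a type and less RNA per cell cannot be told apart, and scaled arrays carry no information on total RNA.

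All 9 arrays had been scaled to a trimmed mean of 250, and 67.0 to 71.5% of genes per array were above the noise level. Of 8 motor neuron markers 7 were measured, and Slc18a3, Slc5a7, Isl1, Prph and Nefh were above noise on every array, whereas the Chat probe set was so on 4 of 9. Mnx1 read 80.9 to 155.6 in L5, 71.3 to 122.5 in DL and 0.9 to 3 in OMN, and was called higher in L5 and in DL than in OMN. Isl1 was called lower in L5 than in DL and in OMN, and Prph higher in L5 than in OMN. The 7 markers summed to 25693 to 25916 in L5, 18606 to 22965 in DL and 18577 to 19334 in OMN. Markers of other cells were present in all pools. Summed oligodendrocyte markers ran from 15103 to 16095 in L5, from 21240 to 23239 in DL and from 11766 to 13541 in OMN, and those of inhibitory interneurons from 1628 to 2232 in L5, from 5017 to 5875 in DL and from 1852 to 2674 in OMN. The 3' to 5' ratio of the Gapdh control, a sign of RNA length, was 3.27, 2.44 and 3.75 on the DL arrays and between 2.33 and 2.67 on the other 6. The same ratio of the actin control was 0.93, 0.81 and 0.99 on the DL arrays and between 0.90 and 0.93 on the other 6. It ranked the DL arrays in the same order, with DL 3 the highest and DL 2 the lowest of the 9 arrays. DL 1 lay within the range of the other 6. Without DL arrays 1 and 3, which leaves 1 DL array, 3 members were called in L5 against OMN, 0 in L5 against DL (limma, 7 at an unadjusted p below 0.05) and 1 in DL against OMN.

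Most members differed by less than 0.5 on the log2 scale in each pair of pools compared. Of the 54 genes 39 were above noise on all 9 arrays, 9 on some, and 6 on none, namely Gnat2, Rgs1, Rgs13, Rgs14, Rgs18 and Rgs9bp. In 39 genes the log2 difference between L5 and OMN was smaller than 0.5, and so it was in 35 for L5 against DL and in 35 for DL against OMN. These counts include the 6 at noise, and the share of all genes within 0.5 was not counted. In each of these comparisons 7 of the 54, called or not, differed by more than 1. The shares of all genes that did so were 5.8, 7.7 and 7.8% in the same order. Over all comparisons 7 genes were called and 47 were not. The 7 were the alpha subunit gene Gna14, the beta gene Gnb4, the gamma gene Gngt1, the regulators Rgs4, Rgs6 and Rgs10, and the antisense transcript Gnasas1.

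In L5 against OMN 4 members were called, or 7.41%, against 2.17% of all genes, with Rgs4 and Gnasas1 higher (0.945% of all genes) and Gngt1 and Rgs10 lower (1.22%). In L5 against DL 3 were called, or 5.56%, against 2.55% of all genes, with Gna14 higher (1.28% of all genes) and Gnb4 and Rgs10 lower (1.28%). In DL against OMN 4 were called, or 7.41%, against 3.02%, with Rgs4 and Rgs10 higher (1.37%) and Gngt1 and Rgs6 lower (1.65%). L5 was also set against the mean of OMN and DL, the limb-level pool against both spared ones. There 4 members were called, or 7.41%, against 2.13% of all genes, with Gna14 and Gnasas1 higher (1.03%) and Gngt1 and Rgs10 lower (1.10%). These shares rest on 3 or 4 genes each.

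At an unadjusted limma p below 0.05 the counts were 11 of 54 for L5 against OMN, or 20.4%, against 15.9% of all genes. They were 18 of 54 for L5 against DL, or 33.3%, against 18.9% of all genes, and 14 of those 18 had the lower value in L5. For DL against OMN there were 16, or 29.6%, against 16%, and for L5 against the mean of OMN and DL 15, or 27.8%, against 18.3%. These counts depended on RNA quality in the comparisons with DL. With the Gapdh ratio in the fit they were 11 of 54 members and 2939 of 18193 genes for L5 against DL. For DL against OMN they were then 6 members and 2835 genes, and for L5 against OMN 12 members and 3149 genes. All genes include many at noise. Among genes above noise on all 9 arrays the shares were 20.5% of 39 members and 20.1% of 10293 genes for L5 against OMN, 41.0% and 23.9% for L5 against DL, 28.2% and 19.0% for DL against OMN, and 30.8% and 23.4% for L5 against the mean. Of those for L5 against DL, 12 of 16 members and 1124 of 2461 genes had the lower value in L5. The median log2 difference of the family was -0.12 for L5 against DL, where the median of all genes was 0.065. For DL against OMN it was 0.19, with all genes at -0.036, and for L5 against OMN it was 0.034, with all genes at 0.015. The comparisons share arrays, so that a high DL array enters both L5 against DL and DL against OMN.

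**Figure D1:**
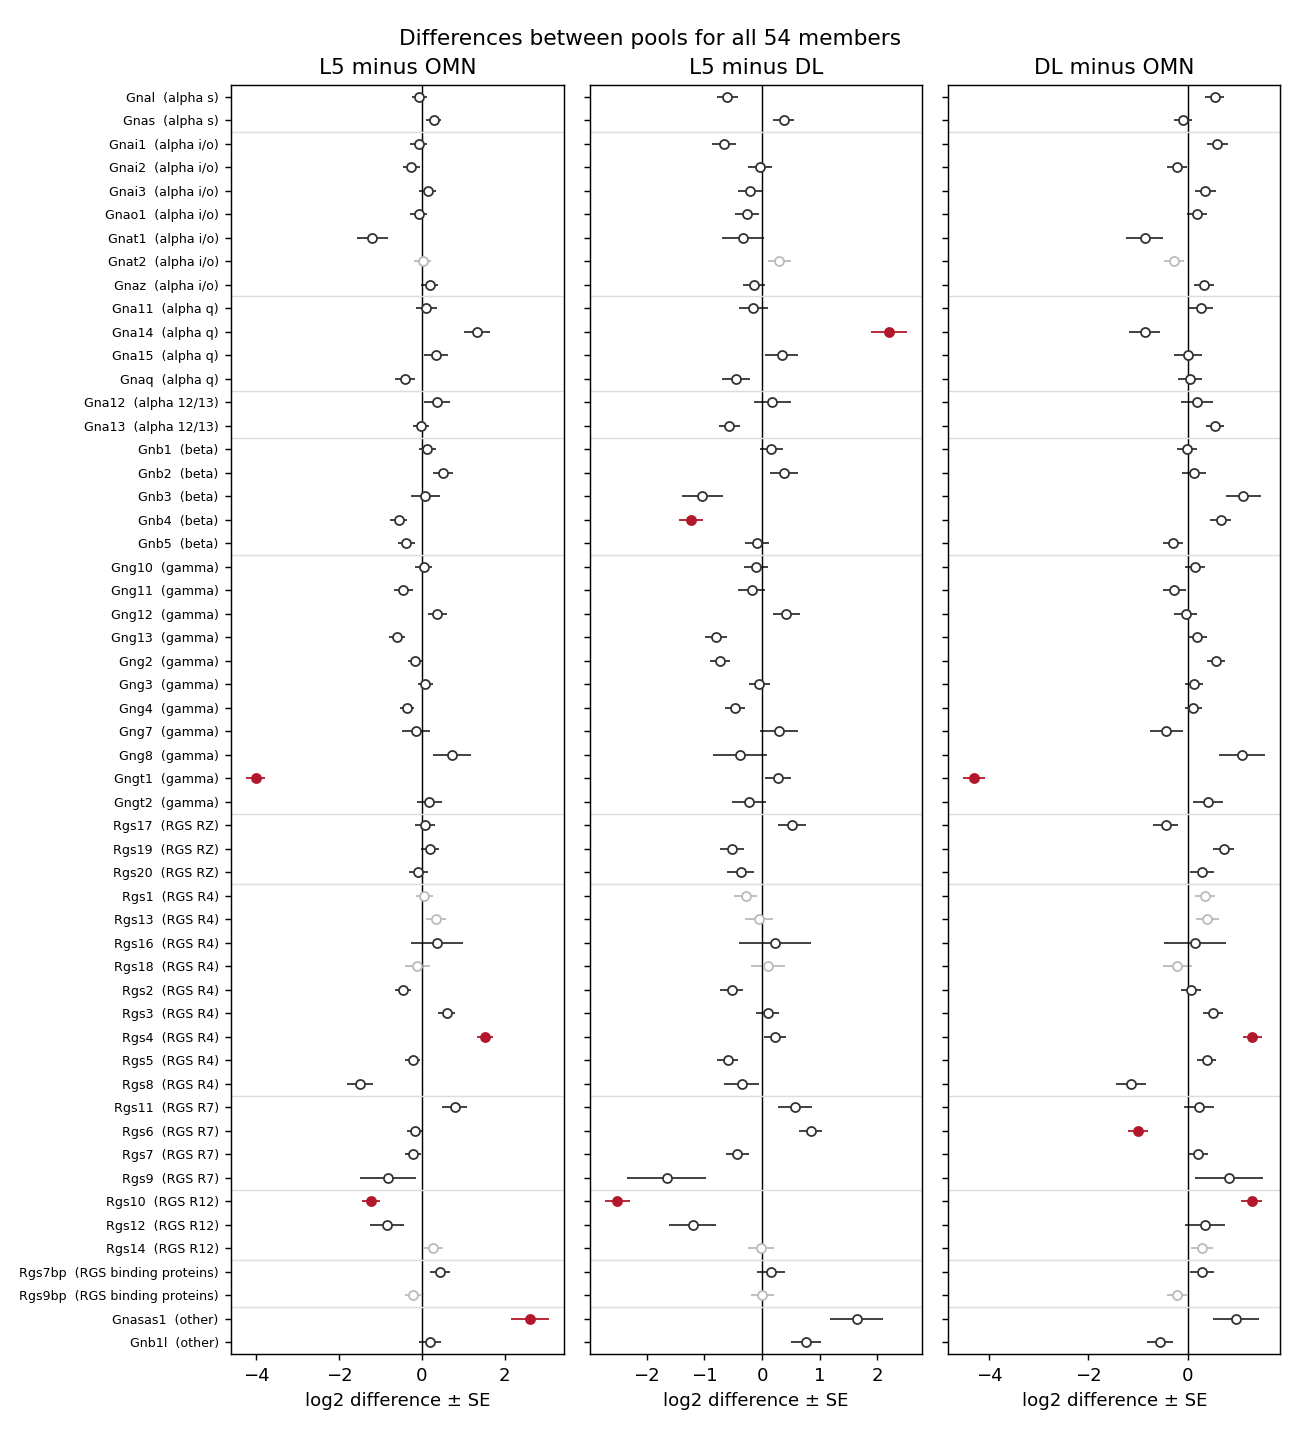
Log2 differences of the G protein and RGS genes, with standard errors, in L5 against OMN, L5 against DL and DL against OMN, where filled red points mark called genes and grey points genes at or below noise on all 9 arrays. Most points lie within 0.5 of zero, and Gngt1 stands far to the negative side in both comparisons with OMN.

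For the called genes Gngt1, Gna14, Rgs4 and Rgs10 the 250 bases before the start of transcription are printed, because these genes carry the differences described below. Promoters were taken from RefSeq, build GRCm38.p6, which held an entry for 39 of the 54 genes, with 52 promoters in all. Gnb4 and Gnasas1 had none there. The sequences run 5′ to 3′ on the strand of the gene, and capitals mark TGACG, the core letters of the cyclic AMP response element, or its reverse complement CGTCA.
Gngt1, chr6:3993758-3994007, plus strand: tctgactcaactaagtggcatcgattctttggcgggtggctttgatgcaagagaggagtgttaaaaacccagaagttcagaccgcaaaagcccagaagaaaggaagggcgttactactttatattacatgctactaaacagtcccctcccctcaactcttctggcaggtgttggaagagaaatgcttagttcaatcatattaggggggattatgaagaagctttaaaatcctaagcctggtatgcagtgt
Gna14, chr19:16435417-16435666, plus strand: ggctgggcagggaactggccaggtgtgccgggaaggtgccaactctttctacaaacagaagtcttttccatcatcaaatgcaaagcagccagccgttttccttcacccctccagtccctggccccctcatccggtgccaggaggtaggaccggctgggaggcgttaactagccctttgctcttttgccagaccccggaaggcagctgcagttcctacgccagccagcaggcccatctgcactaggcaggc
Rgs4, chr1:169747643-169747892, minus strand: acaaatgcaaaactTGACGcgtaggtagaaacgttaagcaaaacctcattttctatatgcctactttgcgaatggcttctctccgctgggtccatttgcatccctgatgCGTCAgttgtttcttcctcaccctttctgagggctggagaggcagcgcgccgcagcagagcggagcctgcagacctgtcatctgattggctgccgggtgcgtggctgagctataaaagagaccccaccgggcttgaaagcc
Rgs10, chr7:128418173-128418422, minus strand: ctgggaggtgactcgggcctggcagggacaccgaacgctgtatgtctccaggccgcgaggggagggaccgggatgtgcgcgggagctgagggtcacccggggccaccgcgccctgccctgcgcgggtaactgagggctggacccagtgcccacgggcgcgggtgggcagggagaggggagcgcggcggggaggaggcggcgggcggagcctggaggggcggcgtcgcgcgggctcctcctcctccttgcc

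TGACG, searched on both strands, was found in 12 of the 52 promoters of the family, or 23.1%, and in 17.8% of all 32851 promoters of that length. These promoters of the family belonged to 10 genes, and overlapping promoters of Gnas were counted separately. Among the called genes Rgs4 held TGACG, with 2 matches, and Gngt1, Gna14, Rgs10 and Rgs6 did not. The core letters of homeodomain sites, TAATTA, also searched on both strands, were in 1 of the 52 promoters, or 1.92%, against 4.84% of all promoters, and in none of the called genes. A match is a description of these letters and not a binding site. The order of genes along chromosomes given below counts protein-coding genes of the same build.

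Among the alpha subunits of the q class Gna14 differed between the pools, and its class mates did not pass the test. Gna14, an alpha subunit that couples receptors to phospholipase C beta, read 960, 972 and 986 in L5, 136, 199 and 289 in DL, and 502, 348 and 301 in OMN. The L5 arrays were all higher than any DL or OMN array, and the 3 DL arrays were below all OMN arrays. The log2 difference was 2.20 ± 0.31 (SE) for L5 against DL (limma, adjusted p = 0.0188) and 1.77 ± 0.27 for L5 against the mean of OMN and DL (limma, adjusted p = 0.0256). For L5 against OMN it was 1.34 ± 0.31 (limma, adjusted p = 0.0913), and for DL against OMN -0.86 ± 0.31 (limma, adjusted p = 0.229), neither of them called. The L5 against OMN difference passed without the replicate number in the fit (limma, adjusted p = 0.0356), with array weights (limma, adjusted p = 0.0401) and with trend and robust variances (limma, adjusted p = 0.0202). The other 2 probe sets of Gna14 also read higher in L5 than in DL, by 1.52 and 1.87 on the log2 scale. Leaving out 1 array at a time kept the L5 against DL difference between 1.85 and 2.53, and the call was lost in 5 of 9 cases, namely without any 1 of the L5 arrays, without DL 1 and without DL 2 (highest limma adjusted p = 0.106). The call against the mean was lost in 6 of 9, without any 1 of the L5 arrays, DL 2, OMN 2 or OMN 3 (highest limma adjusted p = 0.164). Both calls were also lost with the Gapdh ratio in the fit (limma, adjusted p = 0.0956 against DL and 0.0688 against the mean).

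Beside Gna14, the astrocyte gene S100b averaged 3009 in L5, 1365 in DL and 1651 in OMN and was called higher in L5 than in DL and than in the mean of OMN and DL. Of the 8 astrocyte markers it was the only one called higher in L5 than in DL, and Gfap was called lower. Their sums ran from 19490 to 21020 in L5, from 15065 to 17507 in DL and from 14590 to 14871 in OMN, and their part in the Gna14 difference was not tested.

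Gnaq, the widely expressed q-class subunit whose gene lies next to Gna14 on chromosome 19, had means of 1010 ± 191 in L5, 1373 ± 136 in DL and 1347 ± 290 in OMN (SD, n = 3 each). Its L5 against DL difference was -0.45, with the sign opposite to that of Gna14 (limma, adjusted p = 0.375). Gna11, the closest relative of Gnaq, averaged 1802 ± 315 in L5, 2030 ± 555 in DL and 1658 ± 188 in OMN (SD, n = 3 each). Gna15, a q-class subunit best known from blood cells, lay near noise, with 4 of 9 arrays above it.

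None of the 7 alpha subunits of the i/o class was called in any comparison. Gnaz, which inhibits adenylyl cyclase and resists pertussis toxin, had means of 3296 ± 411 in L5, 3641 ± 459 in DL and 2888 ± 168 in OMN (SD, n = 3 each). Gnai1 read 2185, 1954 and 1830 in L5, 3234, 2858 and 3414 in DL, and 2204, 2441 and 1692 in OMN. Every DL array of Gnai1 was above the other 6, but neither the L5 against DL difference of -0.67 (limma, adjusted p = 0.149) nor the DL against OMN difference of 0.59 (limma, adjusted p = 0.215) passed the test. Gnai2, Gnai3 and Gnao1, the other brain i/o subunits, had L5 means of 1463, 524 and 1337, DL means of 1494, 605 and 1635, and OMN means of 1739, 467 and 1411.

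Gnat1, the alpha subunit of rod transducin, was near noise: 1.6, 14.3 and 9.1 in L5, 13.4, 26.7 and 5.2 in DL, and 62.9, 23.9 and 35.5 in OMN. It was above noise on all OMN arrays and on 1 of the other 6, with a log2 difference of -1.20 ± 0.37 for L5 against OMN that was not called (limma, adjusted p = 0.179). Gnat2, the cone counterpart, was at or below noise on every array.

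The 4 subunits of the s and 12/13 classes were not called. Gnas, the stimulatory subunit, had means of 12054 ± 993 in L5, 9295 ± 872 in DL and 9886 ± 439 in OMN (SD, n = 3 each), and its 3 L5 arrays were above all others. The differences were 0.28 for L5 against OMN (limma, adjusted p = 0.492) and 0.38 for L5 against DL (limma, adjusted p = 0.308). After quantile normalization they were -0.12 and -0.003, and with arrays centred on their medians 0.35 and 0.29. The L5 against DL difference passed with trend and robust variances (limma, adjusted p = 0.0175). Because the sign depended on the normalization, no direction is given. Gnal, the s-class subunit of olfactory and striatal neurons, averaged 640 ± 34.2 in L5, 980 ± 75.8 in DL and 671 ± 88.1 in OMN (SD, n = 3 each), with an L5 against DL difference of -0.60 (limma, adjusted p = 0.148). Gna13, of the 12/13 class, averaged 1214 ± 47.8 in L5, 1812 ± 164 in DL and 1238 ± 152 in OMN (SD, n = 3 each), and the L5 against DL difference was -0.57 (limma, adjusted p = 0.161). Gnal and Gna13 had every DL array above all L5 and OMN arrays without passing the test. Gna12, the other subunit of the 12/13 class, averaged 308 in L5, 281 in DL and 233 in OMN.

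Gnasas1 was called higher in L5 than in OMN. It read 812, 784 and 822 in L5, 180, 490 and 168 in DL, and 214, 78.3 and 97.2 in OMN. All L5 arrays were higher than the other 6, and DL array 2 stood well above the other two DL arrays. The log2 difference was 2.61 ± 0.46 for L5 against OMN (limma, adjusted p = 0.038) and 2.13 ± 0.40 for L5 against the mean of OMN and DL (limma, adjusted p = 0.0474). For L5 against DL it was 1.64 ± 0.46 and not called (limma, adjusted p = 0.117), and it depended on the DL arrays. Without DL array 2 it was 2.25 and called (limma, adjusted p = 0.0448), without DL arrays 1 and 3 it was 0.42 (limma, adjusted p = 0.714), and with the Gapdh ratio in the fit it was 0.72 (limma, adjusted p = 0.398). The Gapdh ratio also ended the call against the mean (1.66, limma, adjusted p = 0.0532). The L5 against OMN call was lost when any 1 of the L5 or OMN arrays or DL array 3 was left out (difference 2.12 to 3.10 over the 9 omissions, highest limma adjusted p = 0.187). Against the mean the call was lost in 8 of 9 omissions, all but DL 2 (highest limma adjusted p = 0.220). A second Gnas probe set, dimmer than the one above, read 650, 920 and 923 in L5, 769, 494 and 543 in DL, and 354, 407 and 364 in OMN. Its L5 against OMN difference was 1.10 and its L5 against DL difference 0.46, with the signs of Gnasas1, and neither was called (limma over all probe sets, adjusted p = 0.108 and 0.405). Gnasas1 overlaps Gnas, and whether the amplified probe keeps the strand is not stated in the labels, so that signal from either strand cannot be told apart on this single probe set.

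Of the 5 beta subunits 1 was called, in 1 comparison. Gnb4, 1 of the beta subunits that pair with gamma subunits at the membrane, read 720, 696 and 801 in L5, 1594, 1578 and 2137 in DL, and 1198, 1155 and 956 in OMN. The pools did not overlap, with L5 lowest and DL highest on every array. The log2 difference for L5 against DL was -1.23 ± 0.21 (limma, adjusted p = 0.0341), and those for L5 against OMN of -0.56 (limma, adjusted p = 0.259) and for DL against OMN of 0.67 (limma, adjusted p = 0.175) were not called. The other 2 probe sets had L5 against DL differences of -0.62 and -0.56, neither called. The Gnb4 call was lost in 13 of 20 alternative settings, among them every omission of 1 array other than OMN 3 (difference -1.32 to -1.07, highest limma adjusted p = 0.152).

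Gnb1, the major brain beta subunit, differed little, with means of 9985 ± 300.2 in L5, 9018 ± 1527 in DL and 9110 ± 772 in OMN (SD, n = 3 each). Gnb2 averaged 523 in L5, 395 in DL and 366 in OMN. Gnb5, which pairs with RGS proteins of the R7 group in place of a gamma subunit, averaged 345 ± 13.3 in L5, 370 ± 71.2 in DL and 455 ± 40.8 in OMN (SD, n = 3 each). Gnb3, known from cone photoreceptors and taste cells, was above noise on the 3 DL arrays (61.9, 21.3 and 34.1) and on no L5 or OMN array, and its DL against OMN difference of 1.12 was not called (limma, adjusted p = 0.170).

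Of the 11 gamma subunits Gngt1 gave the widest separation. Gngt1, the gamma subunit of rod transducin, read 1.7, 16.9 and 2.1 in L5, 1, 4.1 and 1.2 in DL, and 307, 362 and 352 in OMN. It was thus below noise on all 6 spinal arrays and well above it on all 3 oculomotor arrays. The level was at least 18.55-fold lower in L5 than in OMN, with the noise level as the bound, and at least 18.55-fold lower in DL than in OMN. The fitted log2 differences were -4.02 ± 0.22 for L5 against OMN (limma, adjusted p = 0.000468) and -4.30 ± 0.22 for DL against OMN (limma, adjusted p = 0.000318). Both calls held in all 20 alternative settings. The L5 against mean difference of -1.87 ± 0.19 (limma, adjusted p = 0.00745) comes from the OMN arrays alone, since L5 and DL were both below noise, and it was lost without L5 array 1 or L5 array 3 (highest limma adjusted p = 0.0838).

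Of the 4 Gngt1 probe sets 3 showed the difference, with OMN arrays at 178 to 287 on the second and at 69.6 to 137 on the next and all spinal arrays below noise on both. The remaining one was near noise in all pools. The gene next to Gngt1 on chromosome 6, Gng11, a gamma subunit of many non-neural cells, was not called, with means of 133 ± 16.7 in L5, 153 ± 12.0 in DL and 190 ± 43.6 in OMN (SD, n = 3 each). Of 9 photoreceptor markers measured 0 were called; 5 were at or below noise on every array, among them Pde6a, Rcvrn, Cnga1 and Grk1, and the sums ran from 46 to 136 in L5, from 58 to 82 in DL and from 57 to 144 in OMN. The midbrain dopamine markers Th and Ddc were also lower in L5 and DL than in OMN (Th 9.0 to 21.2 in L5, 3.3 to 19.7 in DL and 75.2 to 114 in OMN), while Slc6a3 was at noise in all pools. Slc18a2, which makes up most of the list's sum, was not called, with means of 367 in L5, 723 in DL and 669 in OMN. The dopamine list summed to 342 to 518 in L5, 292 to 1290 in DL and 879 to 954 in OMN. Its part in the Gngt1 difference was not tested.

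**Figure D2:**
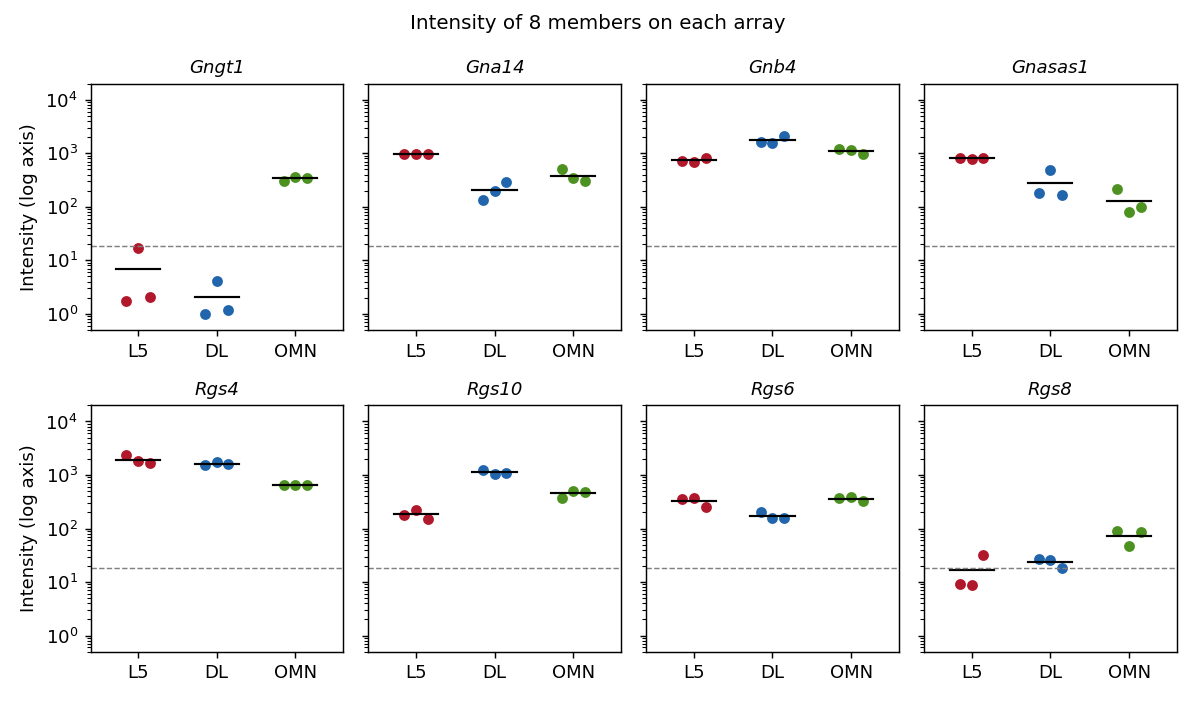
Intensity of the 7 called genes and of Rgs8 on each array (points) with the pool mean (bar), on a log axis, in the order L5, DL and OMN, with the noise level of 18.3 as a dashed line. Gngt1 is above noise in OMN only, Rgs4 is lower in OMN than in both spinal pools, and Rgs10 separates all 3 pools.

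No other gamma subunit was called. Gng3, a gamma subunit of neurons, averaged 6216 ± 801 in L5, 6411 ± 441 in DL and 5843 ± 243 in OMN (SD, n = 3 each). Gng2 read 2017, 1924 and 1728 in L5, 2973, 3218 and 3207 in DL, and 2178, 2105 and 2046 in OMN, so that every L5 array was below every OMN array and every OMN array below every DL array. Its L5 against DL difference of -0.73 missed the threshold (limma, adjusted p = 0.0840). Gng13, the gamma subunit known from taste and retinal bipolar cells, averaged 456 ± 61.1 in L5, 804 ± 64.1 in DL and 701 ± 48.8 in OMN (SD, n = 3 each), with an L5 against DL difference of -0.80 (limma, adjusted p = 0.0824). Gng4 had the same order, with means of 3516 in L5, 4904 in DL and 4533 in OMN and a difference of -0.48 (limma, adjusted p = 0.200). Gng2, Gng4 and Gng13 had L5 arrays below every array of the other pools, without a call. The same held for Rgs2, Rgs5 and Rgs7, and for the called Gnb4 and Rgs10. Gng12 had the L5 arrays above the others, with means of 2104 ± 262 in L5, 1589 ± 327 in DL and 1626 ± 276 in OMN (SD, n = 3 each), again uncalled. Gna14, Gnas and Gnasas1 also had the L5 arrays above the others. These readings are of the brightest probe set of each gene, and the share of all genes was not counted. The dimmer Gng2 probe sets did not share a sign. For L5 against OMN they gave 0.18, 0.70 and -0.15, and for L5 against DL -0.45, 0.19 and -0.33. A dimmer Rgs5 probe set gave -0.18 against OMN and 0.24 against DL, and its remaining ones were lower in L5 in both comparisons. Gng10 and Gng7 averaged 832 and 104 in L5, 916 and 91.8 in DL, and 812 and 115 in OMN, and Gng8 and Gngt2 crossed the noise level on 4 and 3 of 9 arrays.

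Among the 9 regulators of the R4 group, small proteins that act on i/o and q subunits, Rgs4 was called. Rgs4, a regulator abundant in brain neurons, read 2329, 1807 and 1676 in L5, 1570, 1748 and 1601 in DL, and 656, 663 and 647 in OMN. All 6 spinal arrays were above all OMN arrays, and L5 and DL overlapped. The log2 difference was 1.53 ± 0.20 for L5 against OMN (limma, adjusted p = 0.0122) and 1.30 ± 0.20 for DL against OMN (limma, adjusted p = 0.0168). For L5 against DL it was 0.23 ± 0.20 (limma, adjusted p = 0.592). The other 2 probe sets had L5 against OMN differences of 1.47 and 2.27. Without any 1 of the L5 or OMN arrays the L5 against OMN call was lost, with the difference between 1.37 and 1.61 (highest limma adjusted p = 0.0819). The DL against OMN call was lost without any 1 of the OMN arrays, DL 2 or DL 3 (difference 1.24 to 1.40, highest limma adjusted p = 0.0970), and with the Gapdh ratio in the fit (limma, adjusted p = 0.0848).

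Beside Rgs4, the myelin gene Pmp22 of the sensory neuron and Schwann cell list was also higher in both spinal pools (1863 to 2202 in L5, 720 to 1077 in DL and 94.0 to 167 in OMN), and the 5 measured genes of that list summed to 1898 to 2262 in L5, 2075 to 2962 in DL and 176 to 246 in OMN, with Scn10a and Trpv1 at noise everywhere. Pirt and Scn11a of that list were high in DL only, with means of 15.4 and 19.9 in L5, 883 and 609 in DL, and 35.9 and 26.4 in OMN. The astrocyte gene Gfap was likewise called higher in both spinal pools than in OMN, with means of 325 in L5, 1550 in DL and 18.0 in OMN, while the other 7 astrocyte markers were not called in either comparison with OMN. The part of these cells in the Rgs4 difference was not tested. Rgs5, which lies next to Rgs4 on chromosome 1 and is a known marker of pericytes, was not called, with means of 1553 ± 134 in L5, 2362 ± 256 in DL and 1809 ± 16.5 in OMN (SD, n = 3 each). Its L5 against DL difference was -0.60 ± 0.18 (limma, adjusted p = 0.141), and the 8 endothelial and pericyte markers, of which 0 were called, summed to 1107 to 1495 in L5, 1581 to 2336 in DL and 1409 to 2110 in OMN.

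Rgs2, an R4 regulator with a preference for the q class, had probe sets that differed in the size of the difference. Its brightest probe set averaged 1753 ± 231 in L5, 2538 ± 457 in DL and 2396 ± 227 in OMN (SD, n = 3 each) and was not called. A second one read 1120, 790 and 830 in L5, 2169, 1875 and 1650 in DL, and 2102, 2189 and 1898 in OMN, which gave -1.18 for L5 against OMN (limma over all probe sets, adjusted p = 0.0389) and -1.05 for L5 against DL (limma over all probe sets, adjusted p = 0.0497). Another gave -0.19 and -0.05 for the same comparisons. All 4 Rgs2 probe sets, 1 of them near noise, had the lower mean log2 value in L5 in both comparisons. Which transcripts each probe set reads was not tested.

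Rgs8, best known from cerebellar Purkinje cells, read 9.1, 8.8 and 31.7 in L5, 27.1, 26.0 and 18.0 in DL, and 88.8, 47.0 and 85.1 in OMN. All OMN arrays were above all spinal arrays, but the L5 against OMN difference of -1.50 ± 0.30 missed the threshold (limma, adjusted p = 0.0609), and it passed under 6 of the 19 alternatives that kept the gene, at limma adjusted p between 0.0229 and 0.0465, among them no replicate block, array weights and leaving out DL array 3. Rgs16, the neighbour of Rgs8, was above noise on 5 of 9 arrays with values between 1.1 and 85.4 within OMN alone. Rgs3 averaged 168 ± 40.2 in L5, 154 ± 14.7 in DL and 103 ± 7.95 in OMN (SD, n = 3 each), uncalled. Rgs1, Rgs13 and Rgs18, regulators of immune cells, lie in 1 cluster with Rgs2 on chromosome 1 and were at or below noise on every array.

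Rgs10 separated all 3 pools. Rgs10, a short R12-group regulator of i/o subunits found in microglia and in neurons, read 177, 222 and 154 in L5, 1221, 1036 and 1099 in DL, and 372, 508 and 475 in OMN. No array of a pool overlapped with another pool, and the order was L5, OMN, DL from low to high. The log2 difference was -2.51 ± 0.22 for L5 against DL (limma, adjusted p = 0.00493), which is 6.06 times lower in L5 by the means. It was -1.23 ± 0.22 for L5 against OMN (limma, adjusted p = 0.0384), 1.29 ± 0.22 for DL against OMN (limma, adjusted p = 0.0273) and -1.87 ± 0.19 for L5 against the mean of OMN and DL (limma, adjusted p = 0.00695). The L5 against DL call was kept in 19 of 20 alternatives and lost only with DL array 2 as the lone DL array (-2.19, limma adjusted p = 0.0891). The L5 against OMN call was lost in 8 of 9 single omissions, all but DL 2 (difference -1.38 to -1.10, highest limma adjusted p = 0.183). The DL against OMN call was lost in 7 of 9, all but L5 3 and DL 2 (difference 1.14 to 1.45, highest limma adjusted p = 0.130), and with the Gapdh ratio in the fit (1.06, limma, adjusted p = 0.141). Against the mean of both, it was lost without any 1 of the L5 arrays (highest limma adjusted p = 0.0751).

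Of 8 microglial markers 0 were called in any comparison, Itgam was at noise on every array, and the sums ran from 783 to 1035 in L5, from 432 to 1115 in DL and from 768 to 997 in OMN. Of 4 inhibitory interneuron markers, whose sums stand above, Gad2 had the order of pools of Rgs10, at 251 to 288 in L5, 2083 to 2725 in DL and 1209 to 1443 in OMN. Gad1 was also lowest on average in L5, whereas Slc32a1 and Slc6a5 were lowest in OMN, with means of 963 and 551 in L5, 1882 and 707 in DL, and 475 and 22.6 in OMN. The oligodendrocyte markers Cldn11 and Ermn, 2 of 7 measured, were called lower in L5 than in DL and higher in DL than in OMN. The sensory neuron genes Pirt and Scn11a were also lower in L5 than in DL and higher in DL than in OMN (Scn11a 14.4 to 26.4 in L5, 503 to 714 in DL and 10.6 to 49.3 in OMN). Their part in the Rgs10 difference was not tested. Among the motor neuron markers, Isl1 also had the order of pools of Rgs10, with means of 598 in L5, 2717 in DL and 2129 in OMN. The other measured motor neuron markers did not have this order. The other R12-group genes were not called: Rgs12 averaged 71.7 ± 17.9 in L5, 214 ± 150 in DL and 143 ± 38.6 in OMN (SD, n = 3 each), and Rgs14 was at or below noise on all arrays.

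Of the 4 regulators of the R7 group, which bind Gnb5 and act on i/o subunits, Rgs6 was called in DL against OMN. Rgs6 read 349, 372 and 253 in L5, 206, 156 and 157 in DL, and 370, 389 and 324 in OMN. The DL arrays were below all others, and L5 and OMN overlapped. The log2 difference for DL against OMN was -1.004 ± 0.20 (limma, adjusted p = 0.0435), and for L5 against DL it was 0.84 ± 0.20, uncalled (limma, adjusted p = 0.0760). The second Rgs6 probe set did not show it, with a DL against OMN difference of -0.18. The call was lost in 16 of 20 alternatives, every omission of 1 array among them (difference -1.09 to -0.86, highest limma adjusted p = 0.178).

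Rgs7 averaged 276 ± 25.1 in L5, 378 ± 57.2 in DL and 323 ± 22.6 in OMN (SD, n = 3 each), and Rgs11, known from retinal bipolar cells, averaged 71.9 ± 21.5 in L5, 43.1 ± 12.8 in DL and 34.3 ± 9.05 in OMN (SD, n = 3 each), neither called. Rgs9, the regulator of striatum and photoreceptors, read 9.2, 44.6 and 40.4 in L5, 148, 30.2 and 337 in DL, and 69.3, 80.2 and 41.9 in OMN. Its DL arrays ranged from 30.2 to 337, and the L5 against DL difference of -1.65 ± 0.69 was not called (limma, adjusted p = 0.254). A second Rgs9 probe set was more even, at 58.2, 31.9 and 21.9 in L5, 89.7, 135 and 132 in DL, and 47.1, 52.0 and 48.6 in OMN, with an L5 against DL difference of -1.38 (limma over all probe sets, adjusted p = 0.0707). Rgs7bp, the membrane anchor of the R7 group, averaged 734 ± 48.4 in L5, 679 ± 226 in DL and 542 ± 97.9 in OMN (SD, n = 3 each), and Rgs9bp, the anchor in photoreceptors, was at or below noise on all arrays.

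The 3 regulators of the RZ group, which includes regulators of Gnaz, were not called. Rgs20 averaged 2489 ± 491 in L5, 3201 ± 397 in DL and 2627 ± 431 in OMN (SD, n = 3 each). Rgs19 averaged 639 in L5, 945 in DL and 566 in OMN, and Rgs17 averaged 460 in L5, 322 in DL and 427 in OMN. Gnb1l averaged 51.1 in L5, 23.2 in DL and 42.6 in OMN, and was not called.

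**Figure D3:**
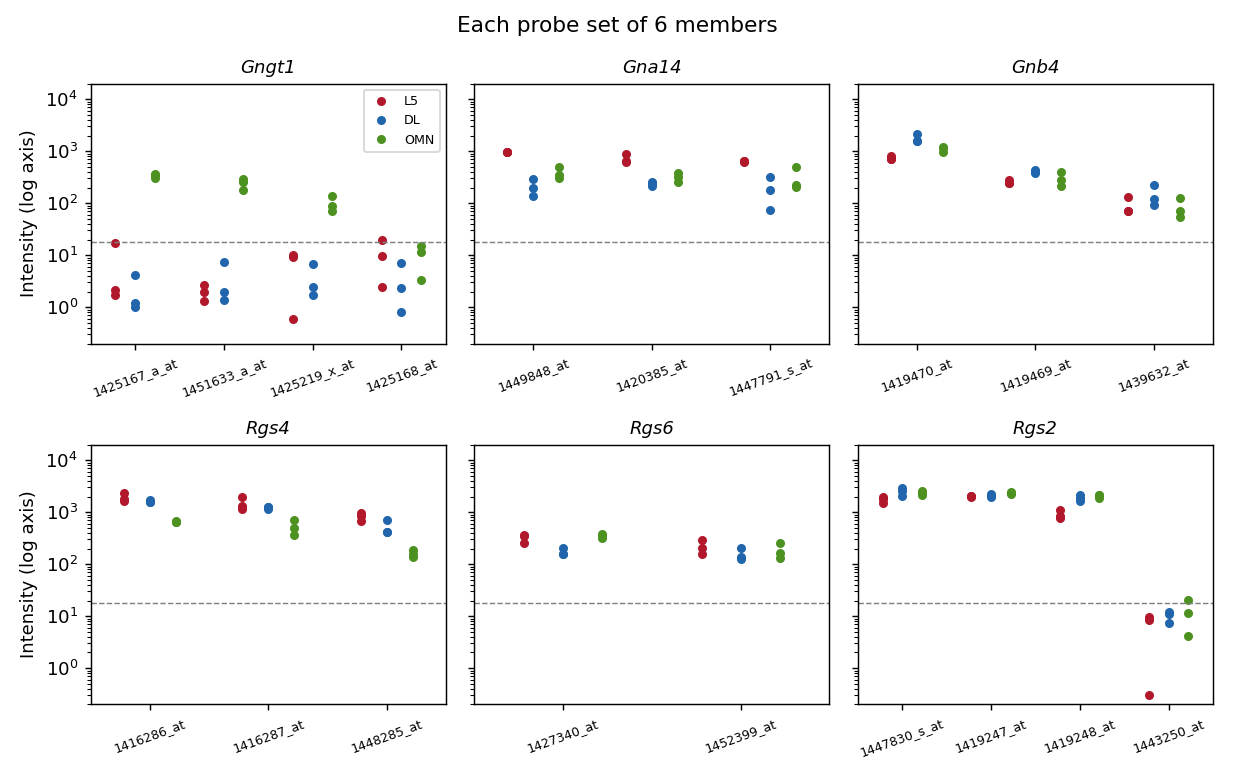
Intensity on each array, on a log axis, of every probe set of Gngt1, Gna14, Gnb4, Rgs4, Rgs6 and Rgs2, coloured by pool, with the noise level of 18.3 dashed. The 3 probe sets of Gna14 and of Rgs4 show the same direction in the comparisons that were called, whereas 1 of 4 for Gngt1 and 1 of 2 for Rgs6 do not show the difference, and those of Rgs2 share a sign for L5 but differ in size.

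The genes on which G proteins act were taken as lists chosen by function. Among 4 potassium channel genes opened by beta-gamma, Kcnj5, best known from the heart atrium, was lower in L5 than in both other pools. It read 0.6, 14.0 and 0.9 in L5, 304, 268 and 110 in DL, and 193, 246 and 247 in OMN, so that L5 was below noise on all arrays and DL and OMN were well above it. The level was at least 12.4-fold lower in L5 than in OMN (log2 difference -3.58 ± 0.34, limma, adjusted p = 0.00375) and at least 11.3-fold lower in L5 than in DL (-3.47 ± 0.34, limma, adjusted p = 0.00594). A second Kcnj5 probe set near noise did not show it. The Kcnj5 call against OMN held in all 20 alternatives, and the call against DL in 18 of 20. The latter was lost with a pseudocount of 1 and without DL arrays 1 and 3. Kcnj3, the usual partner of the other subunits, averaged 490 in L5, 741 in DL and 923 in OMN, and with Kcnj6 and Kcnj9 it was not called. Against OMN the differences of L5 were -0.90 for Kcnj3, -2.22 for Kcnj6 and -1.36 for Kcnj9 (limma, adjusted p = 0.186, 0.138 and 0.123).

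Of 10 adenylyl cyclase genes, Adcy9 was higher in L5 than in DL and no other was called. It read 363, 493 and 441 in L5, 105, 187 and 94.6 in DL, and 202, 244 and 377 in OMN, with a log2 difference of 1.67 ± 0.28 for L5 against DL (limma, adjusted p = 0.0321). The call was lost in 7 of 9 single omissions, all but DL 2 and OMN 3 (difference 1.38 to 1.92, highest limma adjusted p = 0.143). Of the 4 phospholipase C beta genes, the effectors of Gna14 and its class, 0 were called, and the limma differences ran from -0.40 to 0.38 over the pairs of pools. The 8 measured receptor kinases and arrestins, which switch receptors off, had 0 calls as well. All these counts are set against the shares of all genes given above.

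Of 15 measured genes that act on or respond to cyclic AMP, 2 were called higher in both spinal pools than in OMN. Of all genes 0.945% were called higher in L5 than in OMN and 1.37% higher in DL than in OMN. Pde1c, a phosphodiesterase driven by calcium and calmodulin, read 2441, 2129 and 2225 in L5, 1856, 2417 and 1815 in DL, and 549, 248 and 311 in OMN. The difference was 2.64 ± 0.28 for L5 against OMN (limma, adjusted p = 0.00642) and 2.47 ± 0.28 for DL against OMN (limma, adjusted p = 0.0061). Prkar2b, a regulatory subunit of protein kinase A, read 873, 901 and 1110 in L5, 788, 1376 and 775 in DL, and 231, 303 and 255 in OMN, with differences of 1.81 ± 0.24 for L5 against OMN (limma, adjusted p = 0.0152) and 1.79 ± 0.24 for DL against OMN (limma, adjusted p = 0.0112). For both genes every spinal array was above every OMN array. The L5 against OMN call of Pde1c was lost without L5 2, L5 3 or OMN 3 (highest limma adjusted p = 0.0585). The Prkar2b calls were lost without any 1 of the OMN arrays, and the one for L5 also without L5 1 or L5 3 (highest limma adjusted p = 0.0997). The other Prkar2b probe sets gave 1.235 and 1.15 for L5 against OMN, neither called (limma over all probe sets, adjusted p = 0.1026 and 0.0993). For DL against OMN they gave 1.458 and 1.576, both called (limma over all probe sets, adjusted p = 0.0481 and 0.0292).

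Of 18 measured chaperones and non-receptor modulators of G proteins, 2 were called lower in L5 than in OMN, as were 1.22% of all genes. Pdcl, which helps fold beta-gamma, read 257, 202 and 189 in L5, 546, 348 and 525 in DL, and 516, 553 and 534 in OMN (-1.26 ± 0.22, limma, adjusted p = 0.0379), but its other probe set had a difference of 0.06, and the call was lost in 8 of 9 single omissions, all but DL 2 (highest limma adjusted p = 0.173). Gprin3, which binds i/o subunits, averaged 177 in L5, 363 in DL and 391 in OMN (-1.07 ± 0.19, limma, adjusted p = 0.0402), and that call was lost in all 9 single omissions (highest limma adjusted p = 0.185).

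**Figure D4:**
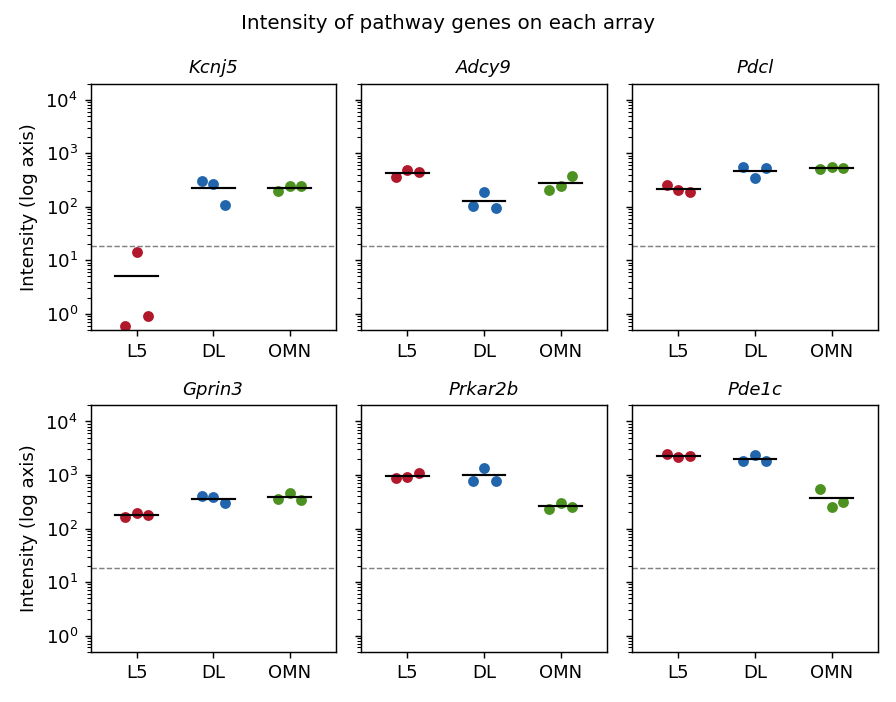
Intensity on each array (points) with the pool mean (bar), on a log axis, of the pathway genes called in any comparison, in the order L5, DL and OMN, with the noise level of 18.3 dashed. Kcnj5 is below noise in L5 alone, and Pde1c and Prkar2b are lower in OMN than in both spinal pools.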

How the data were processed

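Members and gene lists were chosen with earlier results of these data known. The authors deposited 1 table of scaled intensity values, 1 per probe set (45101) and array, from Affymetrix mouse genome arrays. Per the labels' protocols, at least 1.5 ng of RNA from 12 µm sections was amplified with WT-Ovation Pico. What software scaled them is not stated in the labels. The number of arrays limits the precision.

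The platform annotation gave 34945 probe sets naming 1 gene, and 64 controls were left out. The values were used as deposited, as log2(intensity + 16). limma 3.58.1 (R 4.3.3) fitted pool and replicate number over all 9 arrays, with Benjamini-Hochberg adjustment over 18193 genes. The fit was tested on simulated data for L5 against OMN. Differences were planted only in genes with a mean above 50, and all other genes were drawn without a difference. The noise was normal and independent between arrays. It recovered 10 of 67 planted differences of 1 on the log2 scale, 46 of 67 of 2 and 61 of 66 of 3. Of its 121 calls 4 were false. These rates do not cover dimmer genes, and the share of false calls belongs to the simulated data alone. A gene that was not called may therefore still differ. Per the labels each animal gave all 3 pools, but no label says that equal numbers mark 1 animal. The noise level was set after values were seen.

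Named were genes called in any comparison, the 3 highest and 3 lowest differences, and the brightest of each role, with other members given by values. Alternatives changed the pseudocount, scaling, dim-gene filter, probe set rule, block, variance model, array weights, a Gapdh covariate and the arrays used.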

Additional observations from a re-analysis of the deposited data

How the results depend on the processing

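The number of members called, 4 in L5 against OMN, 3 in L5 against DL, 4 in DL against OMN and 4 in L5 against the mean of OMN and DL, depended on the processing, and no called member changed sign under any alternative. With a pseudocount of 1 each of these counts was 1. With trend and robust variances 10 were called in L5 against DL and 11 in L5 against the mean. With the Gapdh ratio as a covariate the counts were 1 in L5 against DL, 1 in DL against OMN and 2 in L5 against the mean. Without DL replicates 1 and 3 they were 0 in L5 against DL (limma, 7 at an unadjusted p below 0.05), 1 in DL against OMN and 0 in L5 against the mean (11 unadjusted). With only the arrays of the pools compared, 1 was called in L5 against DL and 1 in DL against OMN. Leaving out 1 array at a time gave 1 to 4 in L5 against OMN, 1 to 3 in L5 against DL, 1 to 3 in DL against OMN and 0 to 3 in L5 against the mean (limma, 0 without L5 replicate 1 or 3, with 11 unadjusted each). These fits hold fewer arrays.

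Without the replicate block 5 members were called in L5 against DL and 7 in L5 against the mean. Among the genes gained without the block were Gna14 and Rgs8 in L5 against OMN (limma, adjusted p = 0.0356 and 0.0332) and Rgs4 and Gnb4 in L5 against the mean (limma, adjusted p = 0.0163 and 0.0202). Same-numbered arrays did not deviate together: over 10695 genes the correlations of their deviations lay between -0.042 and 0.031 in the 9 pairs.

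Over all genes, 394, 464, 550 and 387 were called in the same order of comparisons; with a pseudocount of 1 the counts were 103, 61, 200 and 53, with trend and robust variances 946, 1153, 880 and 1070, and without the block 806 in L5 against DL and 695 in L5 against the mean. Array weights gave 676 in L5 against OMN, and a minimum mean of 50 gave 699 in L5 against DL. The Gapdh covariate gave 89 in L5 against DL, 279 in DL against OMN and 152 in L5 against the mean, and without DL replicates 1 and 3 the counts were 0 (limma, 3007 unadjusted), 128 and 95. Centring arrays on their medians shifted DL against OMN by 0.15 on the log2 scale and gave 337 higher and 218 lower, against 249 and 301 as deposited. It gave 197 higher and 300 lower in L5 against DL, against 232 and 232.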
